A study of Drosophila melanogaster with 3 samples.

Results

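The proteasome subunit genes of Drosophila melanogaster were examined for binding of CG13775-GFP in chromatin immunoprecipitation sequencing (ChIP-seq) of whole embryos. Members were the protein-coding genes of the Ensembl BDGP6 annotation whose symbol begins with Prosalpha, Prosbeta, Rpn or Rpt and a digit. This gave 48 genes of 13968 protein-coding genes. Of them, 32 are main copies, of which 14 encode the core particle and 18 the regulatory particle. The remaining 16 are duplicates, whose symbol carries a T or R suffix.

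All 3 libraries belong to a single group, CG13775-GFP. The embryos, of both sexes and 0 to 24 h old, came from a transgenic line that stably expresses CG13775 with GFP at its C-terminus, and chromatin was precipitated with an antibody to GFP. The labels call the libraries biological replicates 1, 2 and 4. The promoter of the transgene is not given in the sources used here, every library carries the tag, and no untagged or input list was analysed here. Whole embryos mix all embryonic cell types, so binding in few cells and weak binding in many cannot be told apart.

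The proteasome is the protease complex that degrades proteins marked with ubiquitin chains. Its barrel-shaped core particle is built of alpha rings, which gate the entrance, and beta rings, which hold the protease sites. The regulatory particle caps the barrel: its base contains the Rpt ATPases, which unfold the substrate, together with ubiquitin receptors, and its lid contains scaffold subunits and the enzyme that removes the ubiquitin chain. In Drosophila, many subunits have an extra gene copy, and several of these copies are known for expression in the testis.

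The deposited peak lists hold a signal value for each region, on a scale that the sources used here do not state. The full list of each replicate and that of the pooled libraries held 30000 regions each, background included, and the optimal list held the 5862 peaks left after an IDR threshold (irreproducible discovery rate, a measure of agreement between replicates). Those 5862 headed the pooled list by signal, so rank 5862 of the pooled list is the threshold. Optimal signal had a minimum of 151 and a median of 268. A gene is called bound here where an optimal summit lay within 500 bp of one of its transcript starts. For the same count in a single library, the top 5862 regions of its list were taken, here called its restricted list. No read depth is given, so the precision behind a signal value is unknown, and signal is compared only within a list. Ranks from the separate lists are set side by side as a description.

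Some main copies were bound and no duplicate was. An optimal peak lay at 16 of the 48 proteasome genes, or 33.3% (exact 95% Clopper-Pearson interval 20.4 to 48.4), against 26.2% of all protein-coding genes. As a set, the 48 genes thus lay near the background. All 16 bound genes were main copies, so that 50.0% of the 32 main copies (31.9 to 68.1) and 0 of 16 duplicates (up to 20.6%) were bound. The intervals cover counting error only and treat genes as independent.

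In each replicate, too, main copies stood above duplicates. The 48 genes were bound at 22.9, 27.1 and 35.4% in replicates 1, 2 and 4, a mean of 28.5 ± 6.36% (SD, n = 3), against 25.0, 25.5 and 27.4% of all protein-coding genes. In replicate 1 the members lay below all genes. Among main copies the share was 34.4, 40.6 and 53.1%, a mean of 42.7 ± 9.55%, while no duplicate was bound in any replicate. Main copies minus duplicates was 50.0 percentage points among optimal peaks, beside 42.7 ± 9.55 over the replicates. With 1 group and members chosen with results known, no test was made of this or any other difference given here.

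**Figure D1:**
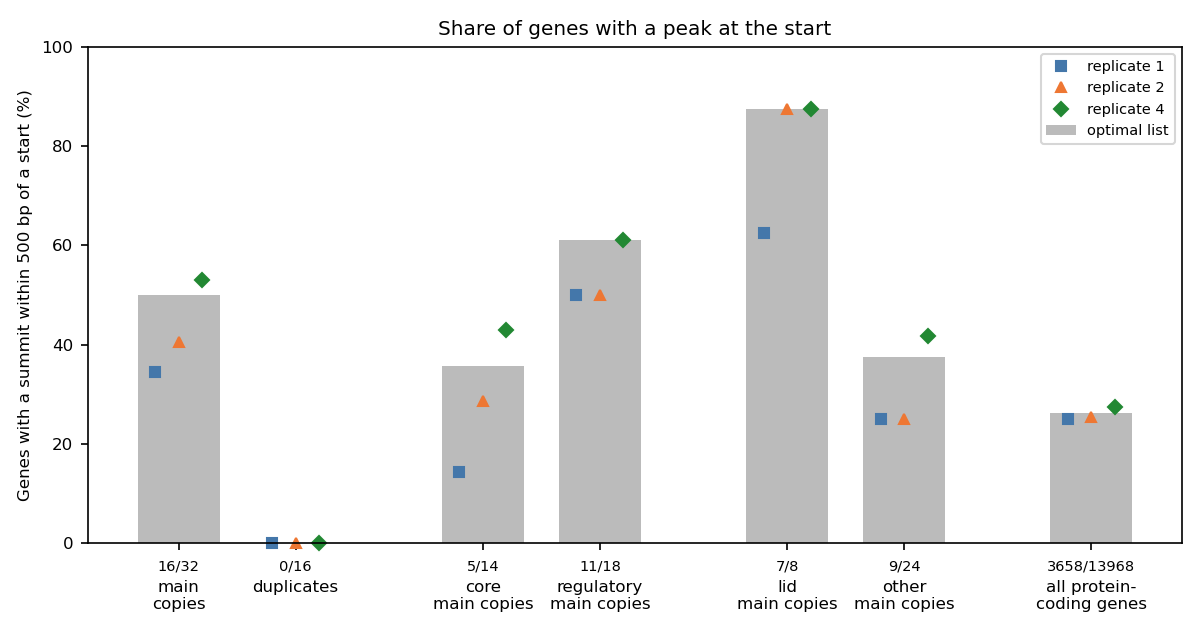
Share of genes with a summit within 500 bp of a start, as a percentage on the vertical axis, for groups of proteasome genes and for all protein-coding genes. Grey bars give the optimal list with the number bound of the number of genes below them, and symbols give the restricted lists of replicates 1, 2 and 4. Lid main copies reach 87.5% and duplicates 0%, and all protein-coding genes lie between 25.0 and 27.4% in the replicates.

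The lid genes stood highest. Of the 8 lid main copies, 7 were bound (87.5%, interval 47.3 to 99.7), against 9 of the 24 other main copies (37.5%, 18.8 to 59.4). The 2 intervals overlap. Sem1, a lid subunit whose symbol lies outside the naming rule, was not bound and is not among the 8. In replicates 1, 2 and 4 the lid minus the other main copies was 37.5, 62.5 and 45.8 points, a mean of 48.6 ± 12.7 (SD, n = 3), with lid shares of 62.5, 87.5 and 87.5% and a mean of 30.6 ± 9.62% for the others. The lid was singled out after its values were seen. Its median rank in the pooled list was 2390, against 7160 for the other main copies and 22671 for all protein-coding genes. All 8 lid genes had a region in each full replicate list, which held for 17 of the 32 main copies.

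Rpn5, a scaffold subunit of the lid, carried the strongest peak of all members. Its pooled signal was 863, at rank 399, and the strongest region ranked 362, 332 and 496 in replicates 1, 2 and 4. This summit was nearer to a start of the neighbouring gene Hat1, at 102 bp, than to Rpn5. The optimal peak nearest to Rpn5 itself had a signal of 154 at rank 5753, just inside the threshold. Rpn3, another scaffold subunit, followed with a signal of 611 at rank 791 and replicate ranks of 556, 771 and 1021. These are the 2 members within the first 1000 regions. Rpn11, the metalloprotease that cuts ubiquitin chains from substrates, had a signal of 475 at rank 1240 and ranks of 1745, 753 and 1350. The strongest region at each of these 3 genes thus ranked well within the restricted list of every library. Rpn12, a small scaffold subunit, had a signal of 229 at rank 3576, with ranks of 6670, 5244 and 2929, the first of them outside the restricted list. Rpn7 was the weakest bound lid gene: its signal of 157 at rank 5609 lay just inside the threshold, and its ranks of 7530, 3852 and 8646 placed it in the restricted list of replicate 2 alone.

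The 250 bp before the starts of 4 bound lid genes are shown because the strongest summit of each gene falls within them. All are read 5′ to 3′ along the gene from the RefSeq genome sequence of Release 6 (dm6), and capitals mark matches to the words named further on (TATCGATA, TATAAA and GAGAG, on either strand). Rpn5 (chr3R:5789243-5789492, plus strand) has its main summit at -211 bp from the start, where negative numbers are upstream, and a second optimal peak of signal 154 at 12 bp. Rpn3 (chr2L:19051540-19051789, plus strand) has its summit at -23 bp. A stretch of 82 bases that begins at -187 bp occurs again from -109 bp, so the copies overlap. Among the 48 genes the next longest repeat in this window was 16 bases and the median 8 bases. Rpn11 (chr2L:5059791-5060040, minus strand) has its summit at -189 bp, and a second optimal peak of signal 153 at -391 bp lies beyond the window. Rpn7 (chr3R:22462055-22462304, minus strand) has its summit at -146 bp, 6 bp from the middle of a GAGAG match.
Rpn5: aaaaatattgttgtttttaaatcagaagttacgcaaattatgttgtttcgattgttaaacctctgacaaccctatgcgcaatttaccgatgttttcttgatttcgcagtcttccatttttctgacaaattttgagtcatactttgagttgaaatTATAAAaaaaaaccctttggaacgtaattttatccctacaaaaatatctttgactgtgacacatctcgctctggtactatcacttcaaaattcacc
Rpn3: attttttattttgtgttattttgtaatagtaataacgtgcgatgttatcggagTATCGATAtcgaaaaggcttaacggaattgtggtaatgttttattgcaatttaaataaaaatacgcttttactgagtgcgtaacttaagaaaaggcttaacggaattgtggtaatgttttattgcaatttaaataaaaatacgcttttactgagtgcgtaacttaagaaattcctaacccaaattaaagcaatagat
Rpn11: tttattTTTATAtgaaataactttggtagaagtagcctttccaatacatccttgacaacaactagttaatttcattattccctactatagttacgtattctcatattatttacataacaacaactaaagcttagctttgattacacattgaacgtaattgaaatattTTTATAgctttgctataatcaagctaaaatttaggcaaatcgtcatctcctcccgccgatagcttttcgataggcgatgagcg
Rpn7: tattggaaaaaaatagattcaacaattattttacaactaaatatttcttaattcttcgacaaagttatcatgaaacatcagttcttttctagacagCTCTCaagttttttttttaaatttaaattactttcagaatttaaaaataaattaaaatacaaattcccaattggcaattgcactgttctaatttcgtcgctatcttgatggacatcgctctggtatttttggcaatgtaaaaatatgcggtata

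The remaining lid genes were Rpn6, Rpn8 and Rpn9. Rpn6, a scaffold subunit that joins lid and core, had a signal of 447 at rank 1375, with ranks of 1585, 1494 and 1403 in replicates 1, 2 and 4. Rpn6 thus ranked well within the restricted list of every library, with its summit at -124 bp from an inner transcript start. Rpn8, the inactive partner of Rpn11, had a signal of 238 at rank 3405 and ranks of 2527, 3574 and 5459. Its summit lay at -217 bp from an inner transcript start and 108 bp from a start of Slik, a kinase gene, and no pooled region lay at its outermost start. Rpn9, a scaffold subunit, was the lid gene under the naming rule that missed the threshold. Its signal was 131 at rank 6979, with ranks of 6174, 21429 and 5482. Of the 7 bound lid genes, 5 were in all 3 restricted replicate lists.

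**Figure D2:**
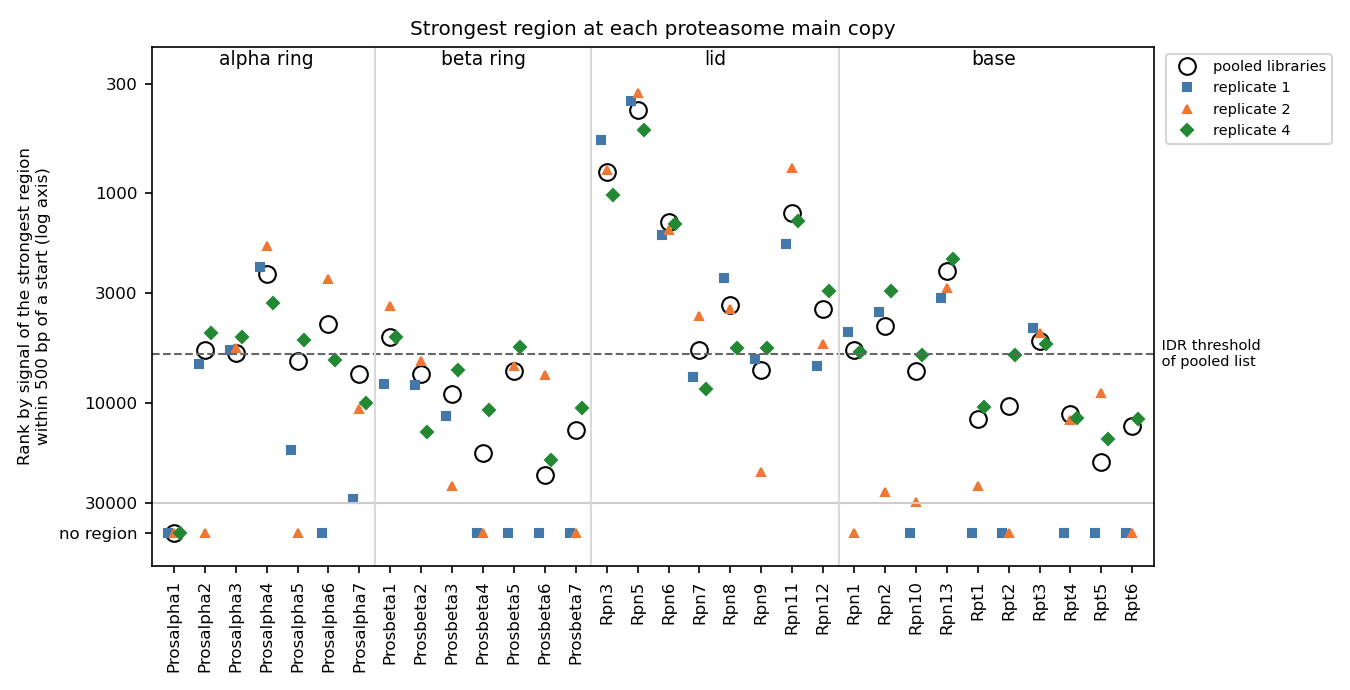
Rank by signal of the strongest region within 500 bp of a start of each proteasome main copy, on a reversed log axis, in the pooled list (circles) and in replicates 1, 2 and 4 (symbols); the dashed line is the IDR threshold at pooled rank 5862, and genes with no region are drawn below rank 30000. Rpn5, Rpn3, Rpn11 and Rpn6 of the lid stand highest, and Prosalpha1 has no region in any list.

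Of the 10 base genes 4 were bound (40.0%, against 26.2% of all protein-coding genes), namely Rpn1, Rpn2, Rpn13 and Rpt3. The 4 Rpn genes of the base were bound at 75.0, 25.0 and 75.0% in replicates 1, 2 and 4, and the 6 Rpt genes at 16.7% in each. Rpn13, a ubiquitin receptor, was the strongest with a signal of 312 at rank 2348 and ranks of 3150, 2824 and 2058 in replicates 1, 2 and 4. Rpn2, the large scaffold on which Rpn13 docks, had a signal of 196 at rank 4327, with ranks of 3680, 26648 and 2930. Replicate 2 thus stood apart at Rpn2. Rpn1, the scaffold that receives shuttle proteins, had a signal of 157 at rank 5623, ranks of 4596 and 5760 in replicates 1 and 4, and no region in replicate 2. Rpn10, another ubiquitin receptor, lay just below the threshold with a signal of 129 at rank 7055, and its region was absent from replicate 1.

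Of the 6 ATPase genes only Rpt3 was bound, with a signal of 171 at rank 5077. It ranked 4416, 4666 and 5257 in replicates 1, 2 and 4, and was the only Rpt gene in any restricted list. The summit lay at -333 bp, 42 bp from a start of CG11122. Rpt1, Rpt2, Rpt4, Rpt5 and Rpt6, which complete the ATPase ring, had pooled regions with signals between 55.2 at Rpt5 and 91.6 at Rpt2. Those regions were below the threshold, and none of these 5 genes had a region in replicate 1. All 6 had one in the full list of replicate 4.

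The alpha ring had 4 of 7 genes bound (57.1%, interval 18.4 to 90.1), against 26.2% of all protein-coding genes. In replicates 1, 2 and 4 the share was 28.6, 42.9 and 57.1%, beside 25.0, 25.5 and 27.4% of all protein-coding genes. Prosalpha4 led with a signal of 304 at rank 2433 and ranks of 2251, 1789 and 3342 in replicates 1, 2 and 4. It carried a second optimal peak of signal 177, and both summits were nearer to kat80, a katanin subunit gene whose nearest start is 90 bp away on the opposite strand. Prosalpha6 had a signal of 200 at rank 4228, with no region in replicate 1 and ranks of 2568 and 6257 in replicates 2 and 4. Prosalpha2 had a signal of 158 at rank 5596, ranks of 6548 and 4638 in replicates 1 and 4, and no region in replicate 2. Each of these 2 genes was therefore in 1 restricted list. Prosalpha3, at signal 154 and rank 5772, was the bound member nearest to the threshold, yet its ranks of 5610, 5500 and 4849 kept it within all 3 restricted lists.

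Prosalpha5 and Prosalpha7 lay below the threshold with signals of 143 at rank 6296 and 125 at rank 7329. Prosalpha5 was the first member outside it. Prosalpha1 had no region in any list, and its sequence bears on this. All 971 words of 31 bases within 500 bp of its start occur more than once in the assembly, as do all 971 at the start of its duplicate Prosalpha1R. At these 2 genes, absence of binding and reads that could not be placed cannot be told apart. At the other members the share of such repeated words was at most 10.7%, at Rpn3, where the 82-base repeat within the window itself counts towards it.

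The beta ring had 1 of 7 genes bound (14.3%, interval 0.361 to 57.9), against 26.2% of all protein-coding genes. In the replicates the mean was 14.3 ± 14.3% (SD, n = 3). Prosbeta1, which carries the caspase-like site, had a signal of 178 at rank 4842 and ranks of 8128, 3453 and 4838 in replicates 1, 2 and 4. Prosbeta5, with the chymotrypsin-like site, had a signal of 130 at rank 7046 and was in the restricted list of replicate 4, but had no region in replicate 1. Prosbeta2, with the trypsin-like site, had a signal of 126 at rank 7266 and ranks of 8193, 6314 and 13851. The 3 catalytic subunit genes thus lay on both sides of the threshold and close to it. The noncatalytic Prosbeta3, Prosbeta4, Prosbeta6 and Prosbeta7 were weaker, with signals of 104, 59.5, 50.1 and 73.2.

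Core main copies were bound at 5 of 14 (35.7%, interval 12.8 to 64.9) and regulatory main copies at 11 of 18 (61.1%, 35.7 to 82.7). Core minus regulatory was -25.4 points among optimal peaks, and -35.7, -21.4 and -18.3 in replicates 1, 2 and 4, a mean of -25.1 ± 9.30 (SD, n = 3). All protein-coding genes were bound at 26.2% among optimal peaks and at 25.0, 25.5 and 27.4% in the replicates, where the core stood at 14.3, 28.6 and 42.9%, so the core lay around that background. It was lower than the regulatory particle in all 3 replicates, although the intervals overlap. The lid supplied 7 of the 11 bound regulatory genes, and the base, at 40.0%, lay near the core. With no threshold the groups converged: 13 of 14 core and 18 of 18 regulatory main copies had a pooled region within 500 bp.

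Read from the top of the pooled list, 50.0% of the lid genes were reached within the first 2000 regions, where no other main copy had yet appeared. The core share was 21.4% at rank 5000 and 64.3% at rank 8000, so that many core genes lay around the threshold. Of all 32 main copies 31 had a pooled region (96.9%), as against 1 of 16 duplicates (6.25%) and 54.0% of all protein-coding genes. Prosalpha1 was the exception among the main copies.

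**Figure D3:**
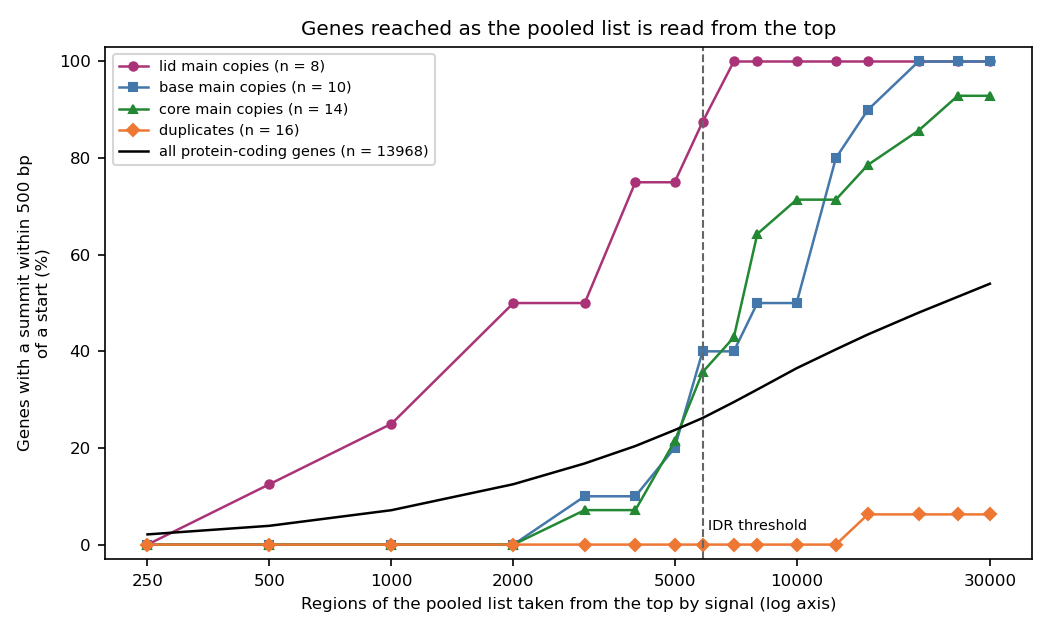
Share of genes with a summit within 500 bp of a start as regions of the pooled list are taken from the top by signal, on a log axis up to 30000 regions, for lid, base and core main copies, duplicates and all protein-coding genes. The lid curve leads, base and core cross the curve of all genes between 5000 and 5862 regions, and duplicates end at 6.25%.

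Among optimal peaks, the median signal of bound proteasome genes was below that of all bound genes. It was 214, against 335 for all bound protein-coding genes, a ratio of 0.640, which was 0.755 ± 0.137 over the restricted replicate lists (SD, n = 3). The ratio was 0.949 among the 2931 strongest optimal peaks, and with no threshold it turned to 1.02. The bound lid genes, with a median of 447, were 1.34 times the median of all bound genes, and the other bound main copies, with 178, were 0.533 times. Of the 16 bound genes, 9 were in all 3 restricted replicate lists, 4 in 2 of them and 3 in 1, and none was in none. Requiring support in every replicate list took the members from 16 to 9 of 48. The share of all protein-coding genes went from 26.2 to 20.6%, so bound members had such support less often than bound genes in general.

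The duplicates lacked regions and were also distant from them. The nearest pooled summit was at a median distance of 4439 bp from the starts of duplicates (247 to 15189 bp), against 93.0 bp for main copies (2 to 3318 bp) and 359 bp for all protein-coding genes. For optimal summits the medians were 25533 bp and 722 bp. Prosbeta2R2 was the one duplicate with a pooled region, of signal 68.7 at rank 14569, and its summit was nearer to CG1116 than to Prosbeta2R2. In the full replicate lists a region lay near 4 duplicates, Prosalpha6T, Prosbeta2R2, Prosbeta5R2 and Rpt3R, at ranks between 11834 and 29116. Rpn12R lies inside Sytbeta, Prosalpha4T1 inside CG42322 and Rpn13R inside both CG15465 and rg.

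Each of the following pairs sets the 250 bp before a bound main copy beside the same window of a duplicate with no region, to show the sequences themselves. The pairs were chosen with the values known and do not stand for all duplicates. Prosalpha4 (chrX:16276020-16276269, plus strand) had 2 optimal peaks and Prosalpha4T1 (chr3R:20749075-20749324, minus strand) no region in any list. The stronger Prosalpha4 summit, at -312 bp, lies beyond the window, and the weaker, at -96 bp, lies within it. Rpn12 (chr3L:16582778-16583027, plus strand) had its summit at -146 bp, while Rpn12R (chr3L:15042571-15042820, minus strand) had no region in any list. Capitals mark TATAAA in Prosalpha4 and TATCGATA in Rpn12, and neither of these duplicate windows holds any of the words searched. The other duplicate of Prosalpha4, Prosalpha4T2, also had no region, and its window holds both TATAAA and GAGAG.
Prosalpha4: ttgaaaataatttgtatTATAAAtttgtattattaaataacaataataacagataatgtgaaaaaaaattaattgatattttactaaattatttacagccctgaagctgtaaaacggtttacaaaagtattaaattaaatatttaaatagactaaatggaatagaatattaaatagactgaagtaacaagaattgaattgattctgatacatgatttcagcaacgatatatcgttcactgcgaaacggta
Prosalpha4T1: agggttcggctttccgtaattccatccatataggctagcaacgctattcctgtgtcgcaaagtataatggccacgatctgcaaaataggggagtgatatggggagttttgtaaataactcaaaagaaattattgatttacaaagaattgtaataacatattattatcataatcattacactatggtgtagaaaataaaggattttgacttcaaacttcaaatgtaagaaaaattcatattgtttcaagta
Rpn12: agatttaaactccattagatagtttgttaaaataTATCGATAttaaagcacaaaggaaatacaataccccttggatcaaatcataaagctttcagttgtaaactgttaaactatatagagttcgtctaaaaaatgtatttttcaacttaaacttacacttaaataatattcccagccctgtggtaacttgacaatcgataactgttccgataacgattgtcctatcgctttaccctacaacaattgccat
Rpn12R: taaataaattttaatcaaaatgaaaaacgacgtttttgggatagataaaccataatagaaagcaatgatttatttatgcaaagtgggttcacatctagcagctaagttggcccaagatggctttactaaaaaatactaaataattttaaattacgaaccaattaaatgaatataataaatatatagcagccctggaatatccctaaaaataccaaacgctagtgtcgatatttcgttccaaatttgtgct

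The strongest summits of bound members lay upstream of a start of their own gene, measured from the closest of its transcript starts. All 16 were upstream, at a median of -146 bp (-333 to -23). For all 3658 bound protein-coding genes the median was -141 bp, with 87.8% upstream. At Rpn6 and Rpn8 the closest start was an inner one, and the summit lay downstream of the outermost start. Main copies with a region below the threshold had a median of -38.0 bp, and 10 of 15 were upstream. For 13 bound members a region overlapped the pooled one in every replicate, and the SD of the 3 replicate summits had a median of 36.8 bp, between 3.51 bp at Rpn3 and 102 bp at Rpt3. The files place 69.9% of optimal summits at the middle of their interval, whose median width was 464 bp, so positions are coarse.

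**Figure D4:**
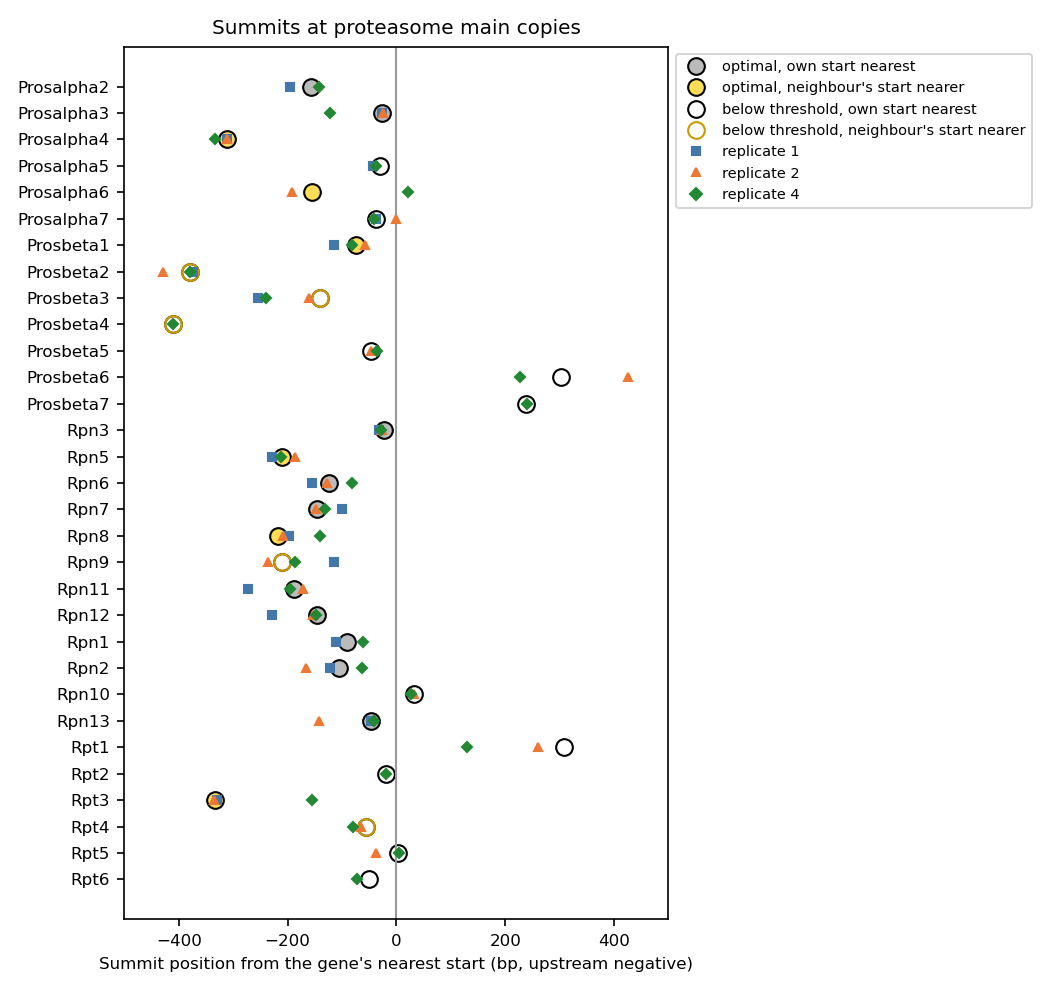
Position of the strongest pooled summit from the nearest transcript start of each proteasome main copy with a region, in bp with upstream negative (circles), and of overlapping replicate regions (small symbols). Filled circles are optimal peaks, yellow where another gene's start is nearer, and all 16 filled circles lie upstream, between -333 and -23 bp.

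Many proteasome genes start back to back with another gene, and such starts share summits. A gene on the opposite strand began within 1000 bp upstream of 19 of 32 main copies (59.4%) and of 3 of 16 duplicates (18.8%), against 38.2% of all protein-coding genes. With such a neighbour 10 of 19 main copies were bound (52.6%), beside 46.1% of all such genes. Without one 6 of 13 were bound (46.2%), beside 13.9% of all such genes. The lid genes were bound at 3 of 3 with and 4 of 5 without a neighbour at the outermost start, although the summit of Rpn8, counted among those without, lies near Slik at its inner start. Core genes, at 10 of 14, had the neighbour more often, and 4 of those 10 were bound.

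For 10 of the 16 bound members the member's own start was nearest to the strongest summit, and for 6 another gene's start was nearer. These were Prosalpha4 beside kat80, Prosalpha6 beside Npc1a, a sterol transport gene, Prosbeta1 beside Rrp42, an exosome subunit gene, Rpn5 beside Hat1, a histone acetyltransferase gene, Rpn8 beside Slik, and Rpt3 beside CG11122. At Rpn5 the second optimal peak, at rank 5753 and so just inside the threshold, was nearest to Rpn5 itself. Counted by nearest start alone, 11 members remained bound, beside 19.3% of all protein-coding genes, and 6 of the 7 bound lid genes were among them. The peak at Prosbeta1, in the sole bound beta ring gene, was not.

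Words known as factor sites, and a further word taken from earlier results of these data, were searched on both strands in the 250 bp before the outermost start. TATCGATA, the DNA replication-related element (DRE) bound by the factor Dref, was present in 10 of 32 main copies (31.2%), in 0 of 16 duplicates and in 7.99% of all protein-coding promoters. The main copies with it were Prosalpha3, Prosalpha5, Prosalpha6, Prosbeta1, Prosbeta2, Prosbeta6, Rpn3, Rpn12, Rpn13 and Rpt5. Bound and unbound main copies held it at 6 of 16 and 4 of 16. Within 50 bp of the summit it was found at 2 of 16 bound members (12.5%), Prosbeta1 and Rpt3, against 4.36% of the optimal summits at promoters and 2.34% of all optimal summits. Both of these summits were nearer to another gene's start, Rrp42 and CG11122, and Rpt3 lacked the word in its own 250 bp. The median GC content of these windows was 32.2% in main copies and 32.6% in duplicates, beside 37.2% in all promoters, and its part in the word counts was not tested.

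Other words were rarer in main copies or near the background. GAGAG, the GAGA factor element, was in 3 of 32 main copies (9.38%), Prosbeta5, Rpn7 and Rpn13, in 5 of 16 duplicates (31.2%) and in 25.7% of all promoters. TATAAA, the TATA box word, was in 40.6% of main copies, 25.0% of duplicates and 43.0% of all promoters. TGACNNNGC, the element of CncC and small Maf, which activate proteasome genes under stress, was in 1 main copy, Prosbeta3, and 1 duplicate, Prosbeta4R2, beside 6.34% of all promoters. GGTCACACT, the M1BP element, was in 1 main copy, Prosbeta3, beside 3.11% of all promoters, and the E-box CAGCTG in 1, Rpt3, beside 13.4%. GGTGGCAAA, the element that Rpn4 binds before proteasome genes in yeast, was in no member and in 0.422% of all promoters, and TGCGGATG, the word from earlier results, in no member and in 0.537%. A match is only a description of the letters in the window.

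Genes of related complexes gave the following counts, set against 26.2% of all protein-coding genes. The COP9 signalosome and the translation factor eIF3 contain, like the lid, subunits with PCI and MPN domains. Of 9 matched COP9 signalosome genes 4 were bound (44.4%), with signals of 495 at CSN5, 389 at alien, 282 at CSN4 and 197 at CSN8. In the replicates the mean was 59.3 ± 6.42% (SD, n = 3). The summits at CSN5, alien and CSN8 were nearer to another gene's start. Of 16 eIF3 genes 5 were bound (31.2%): eIF3c with a signal of 795, eIF3h with 541, eIF3m with 492, eIF3a with 388 and eIF3k with 187. In the replicates the mean for eIF3 was 35.4 ± 3.61% (SD, n = 3). The 16 eIF3 genes include the copies numbered 2, eIF3d2, eIF3f2 and eIF3g2, which had no region. The lid share counts main copies only, so the shares of eIF3 and the lid are not compared.

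Of 16 matched genes for proteasome assembly, activators, inhibitors and ubiquitin shuttling, 9 were bound (56.2%), and 60.4 ± 19.1% in the replicates (SD, n = 3). They included ntc, an adaptor of a ubiquitin ligase, with a signal of 440, the assembly chaperone gene Pomp with 385 and PI31, a proteasome-binding regulator, with 335. The others were rngo with 263, Ufd1 with 251, Pngl with 227, Npl4 with 202, Ubqn with 175 and Usp14 with 162. The summits at ntc, PI31, Ubqn and Ufd1 were nearer to another gene's start. Sem1, a small lid subunit whose symbol lies outside the naming rule, had a signal of 101 at rank 9301 and was not bound. The 3 stress regulators of proteasome genes were all bound, cnc with a signal of 299, its inhibitor Keap1 with 281 and its partner maf-S with 162. The peak at maf-S, at rank 5420, was near the threshold, and the gene was in 1 restricted replicate list. In the replicates the mean for these regulators was 77.8 ± 19.2% (SD, n = 3). Of 5 genes for ubiquitin and its activation 3 were bound, RpS27A with 613, Ubi-p63E with 387 and the activating enzyme gene Uba1 with 276.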

How the data were processed

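ChIP-seq of CG13775-GFP was deposited for 3 libraries. Per the labels, chromatin was sonicated to fragments of 200 to 800 bp. The deposited lists hold a signal value for each region and, by the convention of the format, its −log10 q, which reached a ceiling of 3.97 and was not used for ranking. The peak caller, its version and the kind of control are not given in the sources used here, and no read counts were used, so depth is unknown. The lists on the older assembly were not used.

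Starts came from Ensembl release 115 (18277 genes on the assembled chromosome arms, without transposable elements), and sequence from the RefSeq genome of Release 6, the same assembly as dm6. A summit counted for every gene with a transcript start within 500 bp. Python 3.11.15, pandas 2.3.3, numpy 2.4.6, scipy 1.17.1 and matplotlib 3.10.9 were used, and the assignment was tested on simulated summits. The members and lists were chosen with earlier results of these data known. Named genes are all members, genes whose start is nearest to a member's optimal summit or that start head to head with a member, and bound genes of the partner lists. Sem1 and the genes that enclose a duplicate were named after their values were seen. Of the partner symbols, CSN2, Ubp6, Ecm29, Ter94, Ufd1-like, FBXO7, Fbxo7 and nutcracker matched no gene. No test was made. Alternatives were other windows, thresholds, start choices and replicate lists.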

Additional observations from a re-analysis of the deposited data

How the results depend on the processing

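The count of 16 bound members and the differences between groups depended most on the threshold. With the 2931 optimal peaks of highest signal 6 members were bound (beside 16.4% of all genes), main copies minus duplicates was 18.8 points, the signal ratio 0.949 and the lid count 4. With optimal peaks supported in every replicate list the first 2 values were 9 of 48 members, a smaller share than the 20.6% of all genes, and 28.1 points. Those 9 were the members in all 3 restricted lists. The 13 given above with an overlapping region in every replicate were counted in the full lists. With no threshold the first 2 values were 32 members (beside 54.0% of all genes) and 90.6 points. Core minus regulatory was then -7.14 and the signal ratio turned to 1.02. Counting the nearest start only gave 34.4 points for main copies minus duplicates and -35.7 for core minus regulatory. The outermost start only gave -14.3 for core minus regulatory. The lid count was 6 with the nearest start only and 5 with the outermost start only, which lost Rpn6 and Rpn8. Support in every replicate list also left 5 lid genes. No duplicate was bound under any setting with a threshold. A window of 1000 bp changed no member, and 250 bp, or an interval over the start, lost Rpt3. Among genes with no other start within 1000 bp of the outermost start, chosen after seeing the data, 5 of 23 members were bound, beside 13.3% of all such genes. Rpn8 is among these 5, although its summit lies at an inner start and near a start of Slik.

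The replicate mean of 28.5% bound members was 13.9% with the top 2931 regions (beside 16.2% of all genes), 55.6% with all regions (51.1%) and 19.4% with the nearest start only (19.2%), so the members lay near all genes. For the lid, alternatives added after its values were seen gave 58.3, 100 and 58.3% under the same 3 settings, beside the same shares of all genes. Leaving out each replicate gave 25.0 to 31.2% for members and 75.0 to 87.5% for the lid. The optimal list joins all 3 libraries, so no library could be left out of it. No paired analysis was possible because there is only 1 group. The cause of these shifts was not tested, and without depth a weak region and a shallow library cannot be told apart.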
